A study of Mus musculus with 24 samples.

Results

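The genes described here are 10 chromatin modifiers that have been studied in trained immunity, followed through ATAC-seq peak lists of mouse bone marrow-derived macrophages. A peak was given to a gene where the gene's body was the nearest protein-coding body to the peak summit, at most 50 kb away. That step used position and no measured level, whereas the 10 genes were chosen with earlier results of these data known. Of 1274891 peaks in 24 lists, 1706 belonged to the 10 genes, which are 10 of 21887 protein-coding genes in the RefSeq table. The macrophages came from male C57Bl/6 mice made diabetic with streptozotocin (STZ), a beta-cell toxin, and from untreated wild-type controls of that sex and strain. There were 6 diabetic and 6 control samples, and each was divided into a part stimulated with 100 ng/mL lipopolysaccharide (LPS) plus 10 ng/mL interferon gamma (IFNγ) and a part left unstimulated. The groups were diabetic stimulated, control stimulated, diabetic unstimulated and control unstimulated, with 6 libraries each. STZ diabetes models loss of insulin, and the macrophages were studied after growth in culture. The stimulation time is uncertain, because the labels give 6 h only with IL-1β, which no sample here is labelled as having received. The labels do not say whether a sample was 1 mouse, nor that the replicate numbers mark the 2 parts of a sample, so p-values measure the spread between these libraries and the tests treat them as independent.

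Trained immunity is a lasting change in how innate immune cells respond, carried by marks on histones and DNA. Writers of histone H3 lysine 4 methylation (Kmt2a, Setd7) are linked to active or poised genes, whereas writers of lysine 9 methylation (Setdb2, Ehmt2) are linked to silencing. Kdm6b removes repressive lysine 27 methylation and is a known LPS-responsive gene in macrophages, and Kdm5b removes lysine 4 methylation. Hdac3 and Hdac9 are histone deacetylases. Dnmt3a methylates cytosine at CpG dinucleotides and Tet2 oxidises that methyl group. ATAC-seq reads where the Tn5 transposase can enter chromatin, and thus reports accessibility near these genes, not their RNA or protein. A region without a peak in a list was below the peak caller's threshold and is not thereby closed.

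RefSeq promoter windows of 300 bases, from 250 before to 50 after an annotated start (build GRCm38.p6, the assembly of mm10), were matched for 8 of the 10 genes. Kdm6b and Hdac3 are named only. The 12 windows of these genes ranged from no CpG at the outer Hdac9 start to 57 at Tet2, against a median of 7 over 32851 windows. The following 4 windows are shown because they span that range and because Hdac9 and Dnmt3a have starts far apart, near which regions are described later. CpG dinucleotides are in capitals.
Tet2, chr3:133544341-133544640, minus strand: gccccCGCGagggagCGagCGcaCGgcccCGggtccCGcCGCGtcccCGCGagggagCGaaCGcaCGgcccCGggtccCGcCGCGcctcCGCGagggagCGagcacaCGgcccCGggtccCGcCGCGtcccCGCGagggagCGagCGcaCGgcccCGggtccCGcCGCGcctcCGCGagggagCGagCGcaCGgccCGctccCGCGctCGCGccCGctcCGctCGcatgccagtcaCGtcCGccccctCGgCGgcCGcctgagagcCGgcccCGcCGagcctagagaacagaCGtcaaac
Dnmt3a, inner start, chr12:3891494-3891793, plus strand: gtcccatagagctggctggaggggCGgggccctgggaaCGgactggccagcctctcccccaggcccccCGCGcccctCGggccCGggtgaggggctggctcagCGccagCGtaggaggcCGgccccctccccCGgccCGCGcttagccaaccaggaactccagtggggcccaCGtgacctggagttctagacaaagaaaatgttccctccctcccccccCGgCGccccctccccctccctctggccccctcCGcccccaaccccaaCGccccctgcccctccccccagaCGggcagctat
Hdac9, inner start, chr12:34528840-34529139, minus strand: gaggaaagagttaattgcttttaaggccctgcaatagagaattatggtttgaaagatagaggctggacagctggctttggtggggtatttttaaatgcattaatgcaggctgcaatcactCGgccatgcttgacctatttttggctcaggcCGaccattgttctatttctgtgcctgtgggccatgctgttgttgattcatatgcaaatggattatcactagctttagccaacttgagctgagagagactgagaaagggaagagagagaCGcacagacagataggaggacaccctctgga
Hdac9, outer start, chr12:34917046-34917345, minus strand: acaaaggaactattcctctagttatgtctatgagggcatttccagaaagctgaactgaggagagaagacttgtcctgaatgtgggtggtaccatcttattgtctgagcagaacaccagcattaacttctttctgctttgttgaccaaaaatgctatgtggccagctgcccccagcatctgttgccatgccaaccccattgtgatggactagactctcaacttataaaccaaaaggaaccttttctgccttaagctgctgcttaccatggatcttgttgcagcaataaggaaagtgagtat

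The Tet2 window, with 57 CpG and 81.3% G or C, had more CpG than 99.8% of all windows and lay under a peak in all 24 libraries. The inner Hdac9 window held 3 CpG at 45.3% G or C, fewer than the median window, and also lay under a peak in all 24 libraries. The outer Hdac9 window and the inner Dnmt3a window, with 0 and 18 CpG, lay under no peak in any library. Over all windows, 32.0% lay under peaks in every library and 57.2% under none. Among the other windows of these genes, those of Kmt2a (36 CpG) and Setdb2 (29 CpG) lay under a peak in all 24 libraries. The Setd7 window (21 CpG) had a peak in 20 libraries, namely 4 diabetic stimulated, 4 control stimulated, 6 diabetic unstimulated and 6 control unstimulated ones. The first Ehmt2 window (28 CpG) also had a peak in 20 libraries, and the Kdm5b window (17 CpG) in 1 diabetic unstimulated library. The motif letters GGNNTTTCC (NF-κB type), TGACTCA (AP-1), TTTCNNTTT (interferon-stimulated response), GAGGAAGT (PU.1 type) and CACGTG (E-box) were searched on both strands, and overlap between motifs was not removed. The NF-κB type letters occurred once, in the outer Hdac9 window, and 5.82% of all windows hold them. The E-box letters occurred in the inner Dnmt3a window and in both Ehmt2 windows, and 7.15% of all windows hold them. The letters of the other motifs were in none of the 12 windows and are in 5.202% (AP-1), 10.6% (interferon-stimulated response) and 3.20% (PU.1 type) of all windows.

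The lists held between 41385 and 61861 peaks. Their mean number was 53703 ± 4511 in diabetic stimulated, 47268 ± 4535 in control stimulated, 55522 ± 4925 in diabetic unstimulated and 55990 ± 3486 in control unstimulated libraries (SD, n = 6 each). Diabetic stimulated lists were thus 1.14 times as long as control stimulated lists (two-sided exact permutation test, p = 0.0346), and control stimulated lists were shorter than control unstimulated lists (exact permutation p = 0.00649). The numbers of reads are not known here, so tests were repeated with lists cut to equal length. Of 10 macrophage markers, 7 had a peak within 1 kb of a gene end in all 24 libraries. Csf1r, Lyz2 and Spi1 had one in 18, 18 and 21 libraries, the missing ones all being stimulated. No library had such a peak for 6 of 8 neutrophil markers, 5 of 7 T and NK cell markers, 3 of 5 B cell markers, 3 of 5 erythroid markers and 3 of 4 mast cell and basophil markers. The exceptions included Camp and Cd3d in 24 libraries and Cd4 in 23, and 1 of 5 stromal and 1 of 4 dendritic cell markers had none. In such bulk data, fewer cells with an open region and less opening per cell cannot be told apart.

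The genes differed widely in how many peaks they held. Merging peaks that overlapped by at least 1 bp gave 139 regions for the 10 genes, of which 33 were found in 1 library, 106 in 2 or more and 21 in all 24. Inside gene bodies lay 1382 peaks (81.0%). The farthest peak within the 50 kb limit lay 40120 bp from Tet2, and the nearest one beyond it lay 55347 bp from Tet2. Hdac9, a class IIa deacetylase with a body of 869.5 kb (chr12:34047580-34917095), held 650 peaks in 62 regions, 47 of them in 2 or more libraries and 7 in all 24. Dnmt3a (chr12:3801559-3914443) held 313 peaks in 25 regions and Tet2 (chr3:133463677-133545136) held 247 in 19. Setd7 (chr3:51515318-51560823) held 205 peaks in 10 regions and Kdm6b (chr11:69398508-69420367) held 163 in 7, all inside its body.

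Relative to length, Kdm6b was the densest, with 3.11 body peaks per library and 10 kb, above 97.8% of protein-coding genes. Setd7 had 1.10, Dnmt3a 1.07, Tet2 0.593 and Hdac9 0.301 body peaks per library and 10 kb, the last above 55.1% of genes. Kmt2a (0.0694) and Kdm5b (0.0458) were the sparsest. Few peaks belonged to Kmt2a (46), Ehmt2 (29), Setdb2 (23), Hdac3 (20) and Kdm5b (10). The start of Setdb2 (chr14:59440626-59441659) had a peak in all 24 libraries, but the summit was nearest Cab39l in 21 of them, and all 23 Setdb2 peaks were tied with the overlapping gene Gm45935. At the Hdac3 gene end (chr18:37954600-37955313) the summit was nearest Rell2 in 4 of 24 libraries. At Kdm5b, 8 of the 10 peaks were tied with the overlapping gene Mgat4e. Peak numbers of these small genes therefore rest in part on where a summit fell.

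**Figure D1:**
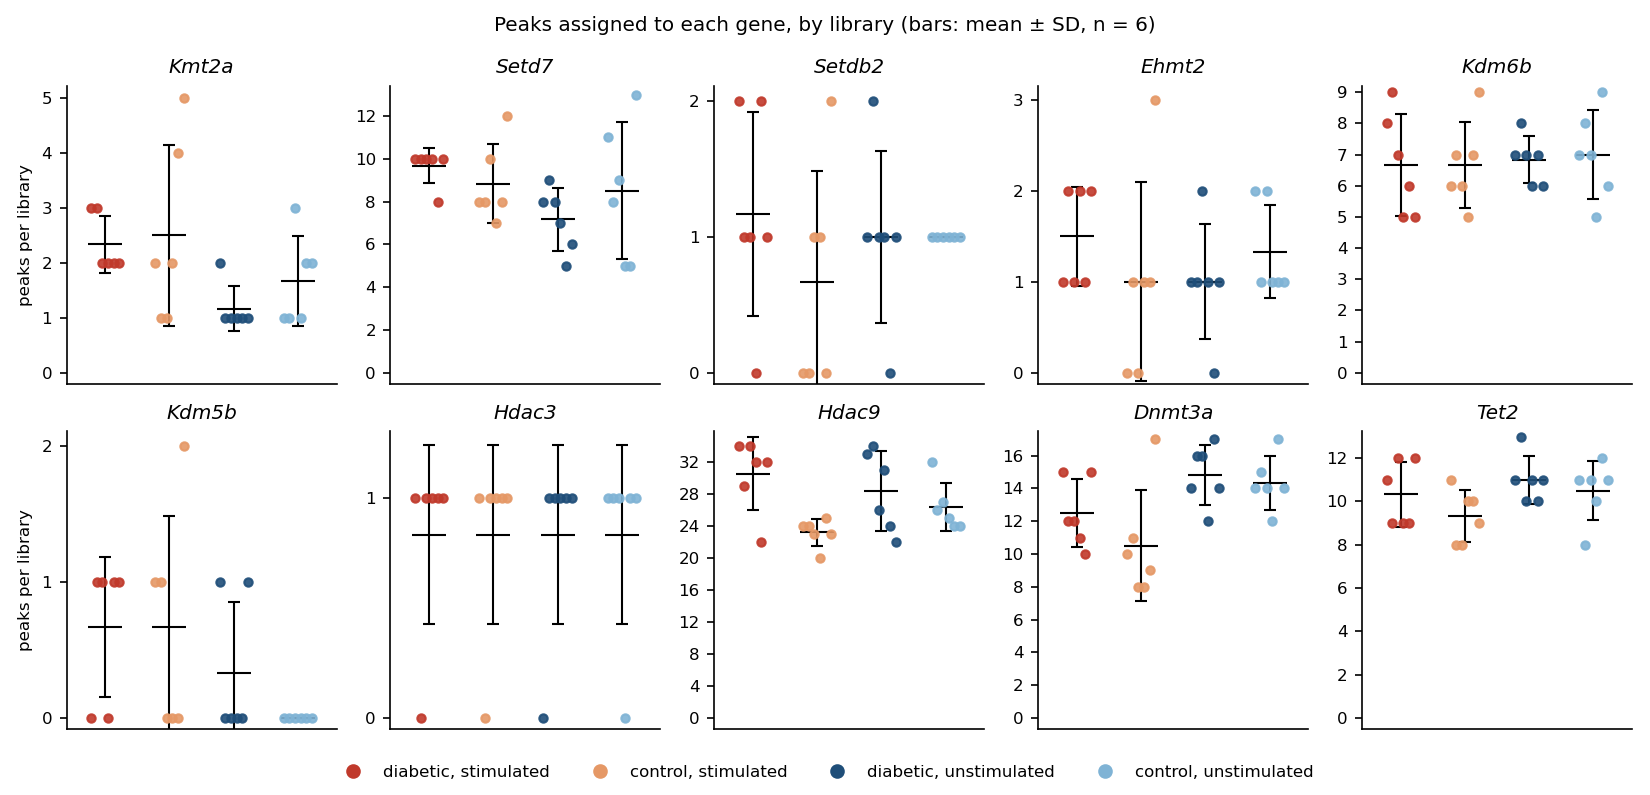
Peaks assigned to each gene (y axis, peaks per library) in every library, with 1 point per library and bars for mean ± SD (n = 6 per group). Hdac9 held between 22 and 34 peaks in diabetic stimulated libraries and between 20 and 25 in control stimulated ones, and for every gene the points of the phenotypes overlapped.

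The main comparison asked whether chromatin near these genes differed between diabetic and control macrophages. In the unstimulated state no difference passed the test. For each region the numbers of libraries with a peak were compared by Fisher's exact test (two-sided), and p-values were adjusted over all regions of the genome that could reach p = 0.05. Of 11 testable regions of these genes none passed, against a background of 0% of 8788 regions, and at an unadjusted p under 0.05 there were also 0, against 1.56% of all regions. Among the 106 regions, 25 (23.6%) were found in more diabetic unstimulated libraries and 20 (18.9%) in fewer, against 19.8% and 21.3% of all 80598 regions. A difference of 3 or more libraries occurred in 2 regions. The share with more diabetic libraries was 0.943% and that with fewer 0.943%, against 2.22% and 2.60% of all regions. A region 18982 bp into Tet2 (chr3:133525246-133525524) was found in 6 diabetic and 3 control libraries (p = 0.182, exact), and, named after its values were seen, a Setd7 region (chr3:51535849-51536270) in 1 diabetic and 4 control libraries (p = 0.242, exact).

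After stimulation, diabetic libraries more often had a peak at these genes, as they had across the genome. Of the 106 regions, 42 (39.6%) were found in more diabetic stimulated libraries and 12 (11.3%) in fewer, against 35.4% and 12.5% of all regions. The shares are near the background, and the diabetic lists were the longer ones. Of 16 testable regions, 0 passed the adjusted test (background 0% of 9681 regions) and 1 had an unadjusted p under 0.05 (background 3.02%), or 2 without control stimulated replicate 1 or 6. The adjusted test could have called a region found in all 6 libraries of one group and in none of the other only if at least 420 regions of the genome had reached that contrast, and 26 did; in the unstimulated state 381 were needed and 7 did. A region-wise difference limited to a few genes could therefore not pass at this number of libraries.

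That 1 region lies inside Hdac9, 32.7 kb downstream of the inner start (chr12:34495998-34496446). It had a peak in 5 of 6 diabetic stimulated libraries and 0 of 6 control stimulated ones, and in 3 of 6 diabetic and 3 of 6 control unstimulated ones (stimulated state, two-sided Fisher's exact p = 0.0152, adjusted p = 0.502). Its fold, the authors' enrichment at the summit, ran from 4.23 over a median of 5.29 to 6.23 in the 5 diabetic stimulated libraries. The folds of 3 diabetic unstimulated libraries ran from 4.91 to 5.42 and those of 3 control unstimulated libraries from 4.15 to 5.74, so all these peaks were low. With lists cut to 41385 peaks each, the contrast was 4 libraries against 0 (exact p = 0.0606), and with peaks of −log10 q of at least 5 it was 3 against 0 (exact p = 0.182). The change of this difference with stimulation, tested with Zelen's exact test, gave p = 0.08 (adjusted p = 1).

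In the stimulated state 8 regions differed by 3 or more libraries, all with more diabetic libraries. Of these, 6 lie in Hdac9, which has 47 of the 106 regions. The 8 are 7.55% of the 106 regions, against 6.42% of all regions with more diabetic libraries by 3 or more. Fewer diabetic libraries by 3 or more occurred in 0% of the 106 regions and 0.641% of all regions. Beside the region above, a Hdac9 region 77.8 kb from the outer start (chr12:34838846-34839463), named after its values were seen, was found in 6 diabetic and 2 control libraries (p = 0.0606, exact). The Hdac9 region 452.6 kb after the inner start (chr12:34076077-34076435) was found in 5 diabetic and 2 control libraries. Outside Hdac9, a region in Setdb2 2157 bp from the start (chr14:59438628-59438909) was found in 5 diabetic and 2 control stimulated libraries, and in 5 diabetic and 6 control unstimulated ones. A Dnmt3a region 3010 bp after the inner start (chr12:3894619-3894922) was also found in 5 diabetic and 2 control stimulated libraries, and in 5 diabetic and 6 control unstimulated ones. At both of these regions, named after their values were seen, the control stimulated group alone was low.

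**Figure D2:**
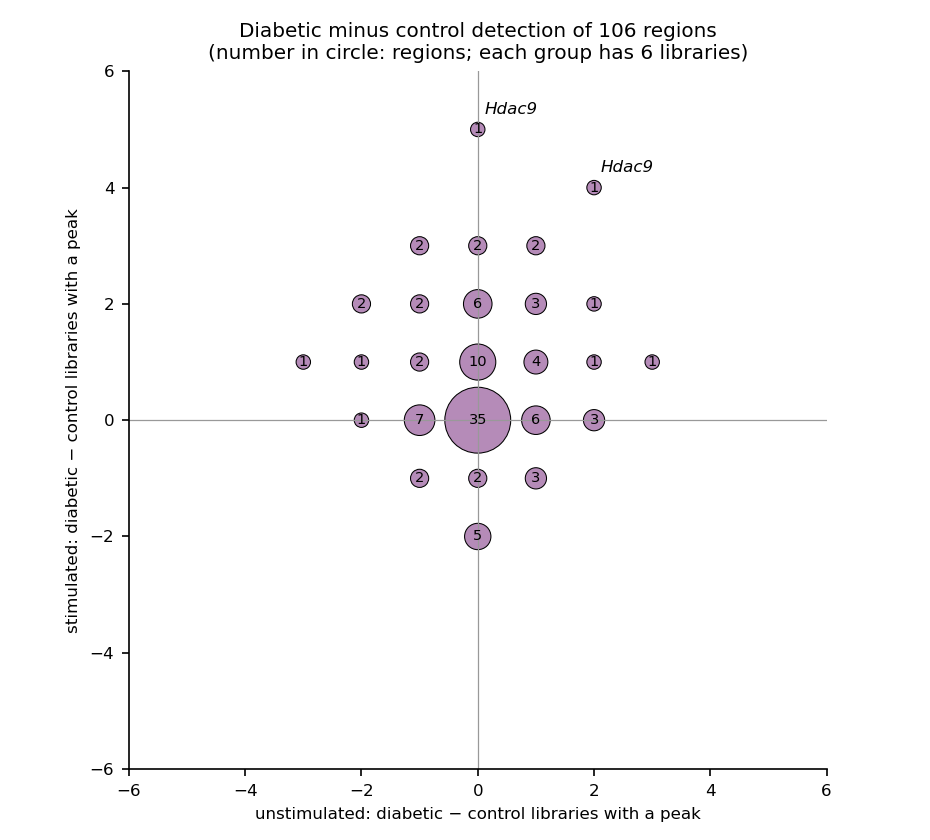
Number of diabetic minus control libraries with a peak in the unstimulated (x axis) and stimulated (y axis) state for 106 regions, with the number of regions in each circle. Differences of 3 or more in the stimulated state occurred in 8 regions, all above 0, and the 2 labelled Hdac9 regions differed by 5 and 4 libraries. Over all 80598 regions, 5173 had more diabetic stimulated libraries by 3 or more and 517 had fewer.

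Detections were also summed over the regions and libraries of each gene. Among the lysine 4 writers, Kmt2a had 14 detections in diabetic and 13 in control stimulated libraries, and Setd7 had 39 in diabetic and 34 in control ones. Among the lysine 9 writers, Setdb2 had 12 in diabetic and 9 in control, and Ehmt2 had 9 in diabetic and 6 in control stimulated libraries. Kdm6b had 36 in diabetic and 34 in control libraries and Kdm5b 4 in each. Hdac9, at 159 detections in diabetic and 127 in control libraries, had the widest gap, while Dnmt3a had 64 in diabetic and 55 in control libraries and Tet2 had 56 in diabetic and 53 in control ones. Hdac9 also had the most regions, 47 of the 106. In the unstimulated state the order differed between genes: Hdac9 had 152 in diabetic and 144 in control libraries, whereas Setd7 had 30 in diabetic and 33 in control ones and Kmt2a had 7 in diabetic and 10 in control ones. These sums were not tested, and the part of the shorter control stimulated lists in them was not tested.

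Among the 10 genes, Hdac9 had the lowest p for the number of assigned peaks in diabetic against control stimulated libraries. It had a lowest, median and highest number of 22, 32 and 34 peaks in diabetic stimulated libraries and of 20, 23.5 and 25 in control stimulated ones, with 5 of 6 diabetic libraries above every control library. Per 1000 peaks of the library this was 0.566 ± 0.0539 in diabetic stimulated and 0.493 ± 0.0502 in control stimulated libraries (SD, n = 6 each), with an exact permutation p of 0.0368 and an adjusted p of 0.233. In the unstimulated state Hdac9 had 0.508 ± 0.0626 peaks per 1000 in diabetic and 0.470 ± 0.0412 in control libraries (exact permutation p = 0.238). No member passed the adjusted test in either state (background 0% of 14700 genes unstimulated and 0% of 14491 stimulated). At an unadjusted p under 0.05, 1 of 10 members differed in the stimulated state, against 17.8% of all genes. Of those 2584 genes, 2264 were lower in diabetic libraries, and Hdac9 was among the 320 that were higher. With lists of equal length no member had an unadjusted p under 0.05.

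Regions found in all 24 libraries cannot differ by detection, and for these the fold was ranked within each library over the same 22770 regions and compared with limma on normal scores of the ranks. None of the 21 such regions of these genes differed between diabetic and control macrophages at an adjusted p under 0.05, in the unstimulated state (background 0%) or the stimulated state (background 0%). At an unadjusted p under 0.05 there were 0 in the unstimulated state (background 4.65%) and 2 in the stimulated state (background 9.26%), a share of 9.52% that is near the background. The number was 4 without diabetic stimulated replicate 4 or control stimulated replicate 5, and 1 without control stimulated replicate 3. The first is a Kdm6b region 1340 bp inside a gene end (chr11:69418509-69419384). Its fold had a lowest, median and highest value of 5.19, 7.52 and 9.05 in diabetic stimulated and of 3.91, 4.995 and 5.77 in control stimulated libraries. In unstimulated libraries the values were 7.37, 8.09 and 10.7 in diabetic and 6.69, 8.45 and 10.7 in control macrophages. The stimulated groups overlapped between 5.19 and 5.77. Its mean rank percentile was 25.4 ± 14.01 in diabetic stimulated, 7.35 ± 6.44 in control stimulated, 35.9 ± 17.5 in diabetic unstimulated and 33.7 ± 13.9 in control unstimulated libraries (SD, n = 6 each). The score difference in the stimulated state was 0.90 (SE 0.26, limma p = 0.0017, adjusted p = 0.27, exact permutation p = 0.0173).

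The second is a Hdac9 region 128 kb from the outer start (chr12:34788979-34789464), where the diabetic stimulated folds of 7.61, 9.49 and 10.8 (lowest, median, highest) stood against 3.86, 6.43 and 11.5 in control stimulated libraries. The score difference was 0.94 (SE 0.35, limma p = 0.0119, adjusted p = 0.393, exact permutation p = 0.0758), and 1 control library had the highest fold of either group, so the groups overlap. Leaving out control stimulated replicate 3 gave a difference of 0.62 with an unadjusted limma p of 0.0655. At the following 4 starts the folds of the phenotypes overlapped. At Kmt2a (chr9:44881130-44881945) the median fold was 8.72 in diabetic stimulated, 8.36 in control stimulated, 7.78 in diabetic unstimulated and 8.96 in control unstimulated libraries. At the Tet2 start (chr3:133544055-133544542) the median fold was 6.58 in diabetic stimulated, 5.87 in control stimulated, 7.44 in diabetic unstimulated and 7.82 in control unstimulated libraries. The merged region over the Setd7 start (chr3:51559621-51561988) had median folds of 5.33 in diabetic and 4.86 in control stimulated libraries. In unstimulated libraries they were 5.42 in diabetic and 5.62 in control macrophages. This region is 2368 bp wide and held 82 peaks, of which the highest fold in each library was taken. The start window itself had a peak in 4 of 6 libraries of each stimulated group. The inner Hdac9 start (chr12:34528727-34529547) had 7.06 in diabetic and 6.28 in control stimulated libraries, and 7.19 in diabetic and 6.77 in control unstimulated ones. The Setdb2 start (chr14:59440626-59441659) had median folds of 13.9 in diabetic and 11.5 in control stimulated libraries, and 15.4 and 15.5 in unstimulated ones. For Dnmt3a the region found everywhere nearest a start (chr12:3834381-3835247, 27.4 kb after it) had 5.68 in diabetic and 5.18 in control stimulated libraries. Its unstimulated medians were 5.91 in diabetic and 5.73 in control libraries. At both regions the folds of the phenotypes overlapped.

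**Figure D3:**
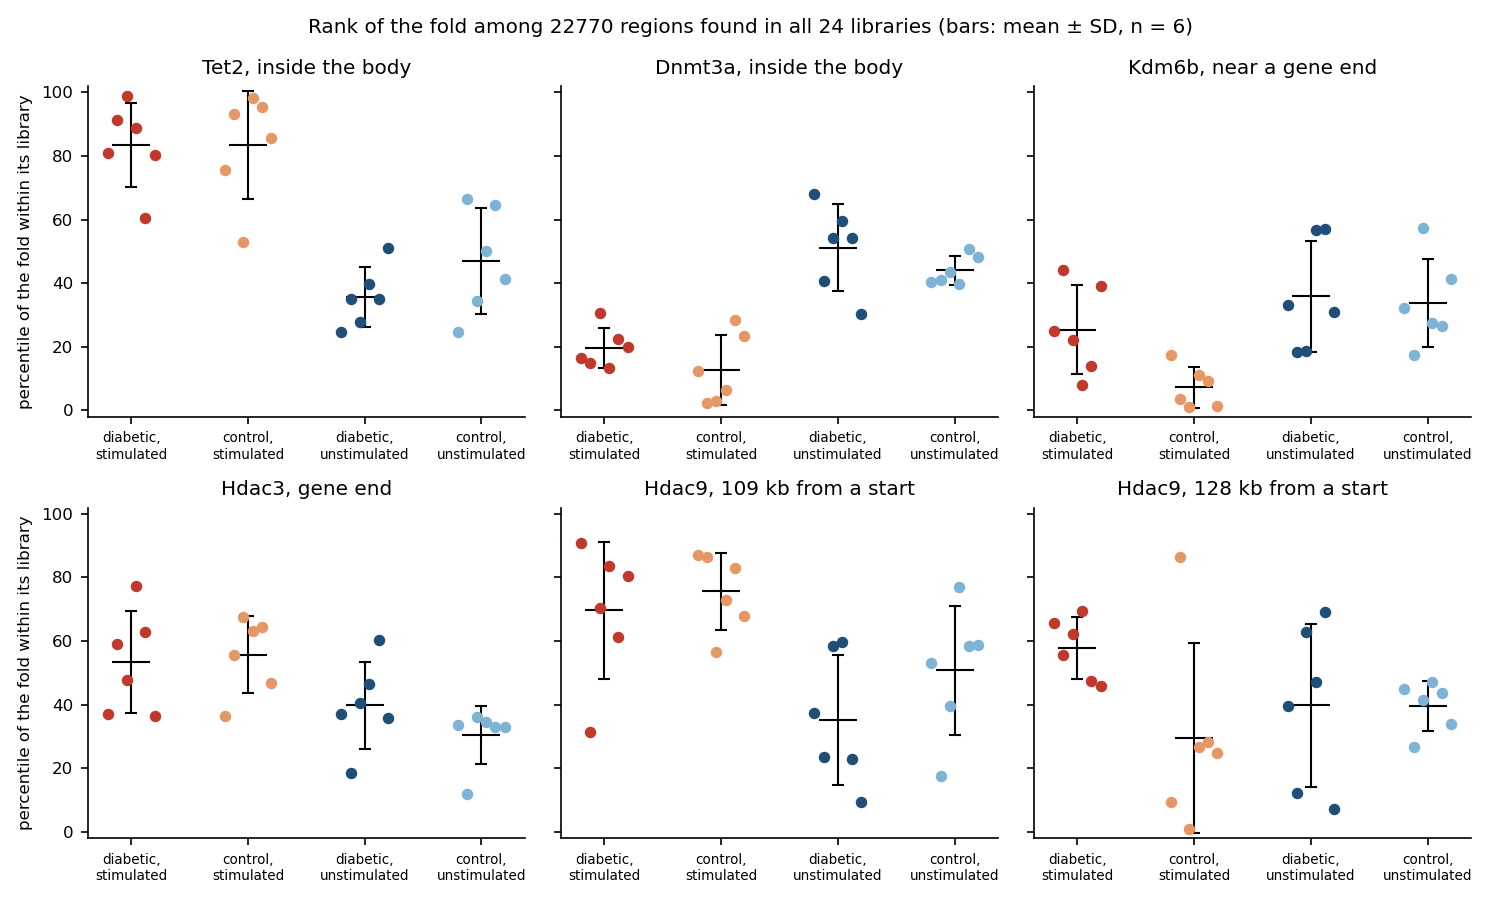
Percentile of the deposited fold within its library (y axis) for 6 regions found in all 24 libraries, 1 point per library with mean ± SD (n = 6). The Kdm6b region averaged 25.4 in diabetic stimulated and 7.35 in control stimulated libraries, and the Tet2 region averaged 83.5 in both stimulated groups against 35.6 and 46.9 in the unstimulated ones.

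The comparison of stimulated with unstimulated macrophages asked how LPS and IFNγ changed accessibility at these genes, and here regions passed the test. Over both phenotypes, 12 stimulated against 12 unstimulated libraries, 18 of 46 testable regions passed (39.1%, background 28.1% of 31219 regions), with 8 gained and 10 lost. Over all regions 8769 passed, with 2868 gained and 5901 lost. The 18 regions lie in Hdac9 (7), Dnmt3a (4), Tet2 (4), Kmt2a (1), Kdm6b (1) and Kdm5b (1). Of the genes with no call, Setd7 had 4 testable regions, Setdb2 and Ehmt2 had 1 each and Hdac3 had 0. Within diabetic macrophages 4 of 16 testable regions passed (background 8.92%) and within control macrophages 3 of 9 (background 35.9%). These shares rest on unlike cutoffs. A contrast of 5 libraries against 0 had an adjusted p of 0.0559 in diabetic and 0.0422 in control macrophages (Fisher's exact test). At an unadjusted p under 0.05 there were 7 of 16 in diabetic (background 27.1%) and 3 of 9 in control macrophages (background 35.9%). With lists of equal length, 10 of the 18 still passed, and these 10 also passed with peaks of −log10 q of at least 5. They were 3 gains, at Tet2 and Hdac9, and 7 losses. Those lists gave 11 calls over both phenotypes, 7 in diabetic and 6 in control macrophages. Leaving out 1 library gave 15 to 18 calls over both phenotypes and 4 to 6 in diabetic macrophages. In control macrophages there were 8 calls without control stimulated replicate 6, 5 without control unstimulated replicate 2, and 1 without control stimulated replicate 2, 3 or 4 or control unstimulated replicate 1, 3, 4, 5 or 6. With p-values adjusted over all regions instead of the testable ones, 9 of the 18 passed, and none did within either phenotype alone.

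Tet2 carried the largest gain. A region 26.5 kb beyond the 3′ end of the gene (chr3:133436809-133437413) had a peak in 6 of 6 diabetic stimulated and 6 of 6 control stimulated libraries and in no unstimulated library (0 of 6 diabetic and 0 of 6 control, Fisher's exact test, adjusted p = 6.2e-05). It passed in each phenotype, with adjusted p = 0.0243 in diabetic and 0.0173 in control macrophages. Its fold ran from 7.56 over a median of 10.3 to 12.3 in diabetic stimulated libraries and from 6.82 over 8.44 to 9.08 in control stimulated ones. The folds of the phenotypes overlapped. The region is assigned to Tet2 as the nearest gene body, and no contact with Tet2 was measured.

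The other 3 called Tet2 regions were lost. The region 30.6 kb upstream of the start (chr3:133574726-133575295) was found in 3 diabetic and 1 control stimulated libraries, against 6 diabetic and 6 control unstimulated ones (adjusted p = 0.0101, Fisher's exact test). It also passed in control macrophages alone (adjusted p = 0.0422), a call that ended on leaving out any 1 of 8 control libraries (adjusted p 0.0503 to 0.0540). The region at the gene's 3′ end (chr3:133463282-133463584) was found in 1 diabetic and 0 control stimulated libraries, against 5 diabetic and 4 control unstimulated ones (adjusted p = 0.0184; with lists of equal length, 0.0938). The region 18.98 kb inside the gene (chr3:133525246-133525524) was found in 1 diabetic and 0 control stimulated libraries, against 6 diabetic and 3 control unstimulated ones (adjusted p = 0.0184). All 3 were found in fewer stimulated than unstimulated libraries of each phenotype. Directly beside the last one, a region found everywhere (chr3:133525653-133526727) moved the other way. Its fold had a lowest, median and highest value of 8.50, 12.4 and 17.1 in diabetic stimulated libraries, against 7.80, 8.52 and 9.20 in diabetic unstimulated ones. In control macrophages the values were 7.56, 12.02 and 13.8 after stimulation, against 8.28, 9.53 and 11.1 before it. Its rank score rose by 1.52 (SE 0.29, adjusted p = 0.000715, limma) in diabetic and by 1.27 (adjusted p = 0.0029, limma) in control macrophages. In place of limma, an exact permutation test with adjustment gave p = 0.0590 in control macrophages.

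Of the called Dnmt3a regions 3 were lost and 1 was gained, and over all regions 5901 of 8769 called regions were lost. The region 1151 bp after its inner start (chr12:3892638-3893095), downstream of the window printed above, was found in 0 of 6 diabetic and 0 of 6 control stimulated libraries, against 6 of 6 diabetic and 5 of 6 control unstimulated ones (Fisher's exact test, adjusted p = 0.000303). It passed within each phenotype, with adjusted p = 0.0243 in diabetic and 0.0422 in control macrophages. Leaving out any 1 of 9 control libraries ended the control call, with adjusted p between 0.0503 and 0.0540. Its folds in unstimulated libraries ran from 5.31 over 6.38 to 8.23 in diabetic and from 5.23 over 5.78 to 6.87 in control macrophages. A region 20.7 kb before the inner start (chr12:3870880-3871314) was found in 0 diabetic and 2 control stimulated libraries, against 6 diabetic and 6 control unstimulated ones (adjusted p = 0.00128). A nearby region (chr12:3868589-3868961) was found in no stimulated library, against 4 diabetic and 3 control unstimulated ones (adjusted p = 0.0235). In diabetic macrophages alone the region at 3870880 passed (adjusted p = 0.0243), while in control macrophages it could not be tested by the rule above, nor could the one at 3868589 in either phenotype. The single gain lay 18.02 kb after the nearer outer start (chr12:3824957-3825434), in 4 diabetic and 2 control stimulated libraries and no unstimulated one (adjusted p = 0.0489). Leaving out any 1 of 13 of the 24 libraries ended that call, with an adjusted p of at most 0.0522, and regions built from summit chains of 150 bp gave 0.0540. With lists of equal length, neither that gain nor the loss at 3868589 passed.

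Among Dnmt3a regions found in every library, one 35.5 kb before the inner start (chr12:3855755-3856524) had lower folds after stimulation. The lowest, median and highest values were 5.64, 6.49 and 8.05 in diabetic stimulated libraries, against 7.59, 10.1 and 11.5 in diabetic unstimulated ones. In control macrophages they were 4.27, 5.14 and 6.72 after stimulation, against 8.54, 9.63 and 10.3 before it, with no overlap between the states. The rank score fell by 0.90 (SE 0.22, adjusted p = 0.0076, limma) in diabetic and by 1.15 (adjusted p = 0.000568, limma) in control macrophages. In place of limma, an adjusted exact permutation test gave p = 0.0654 in diabetic macrophages. Over the whole gene Dnmt3a had a median of 12 peaks in diabetic stimulated and 9.5 in control stimulated libraries, against 15 and 14 in the unstimulated groups, and per 1000 peaks no difference passed the test.

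**Figure D4:**
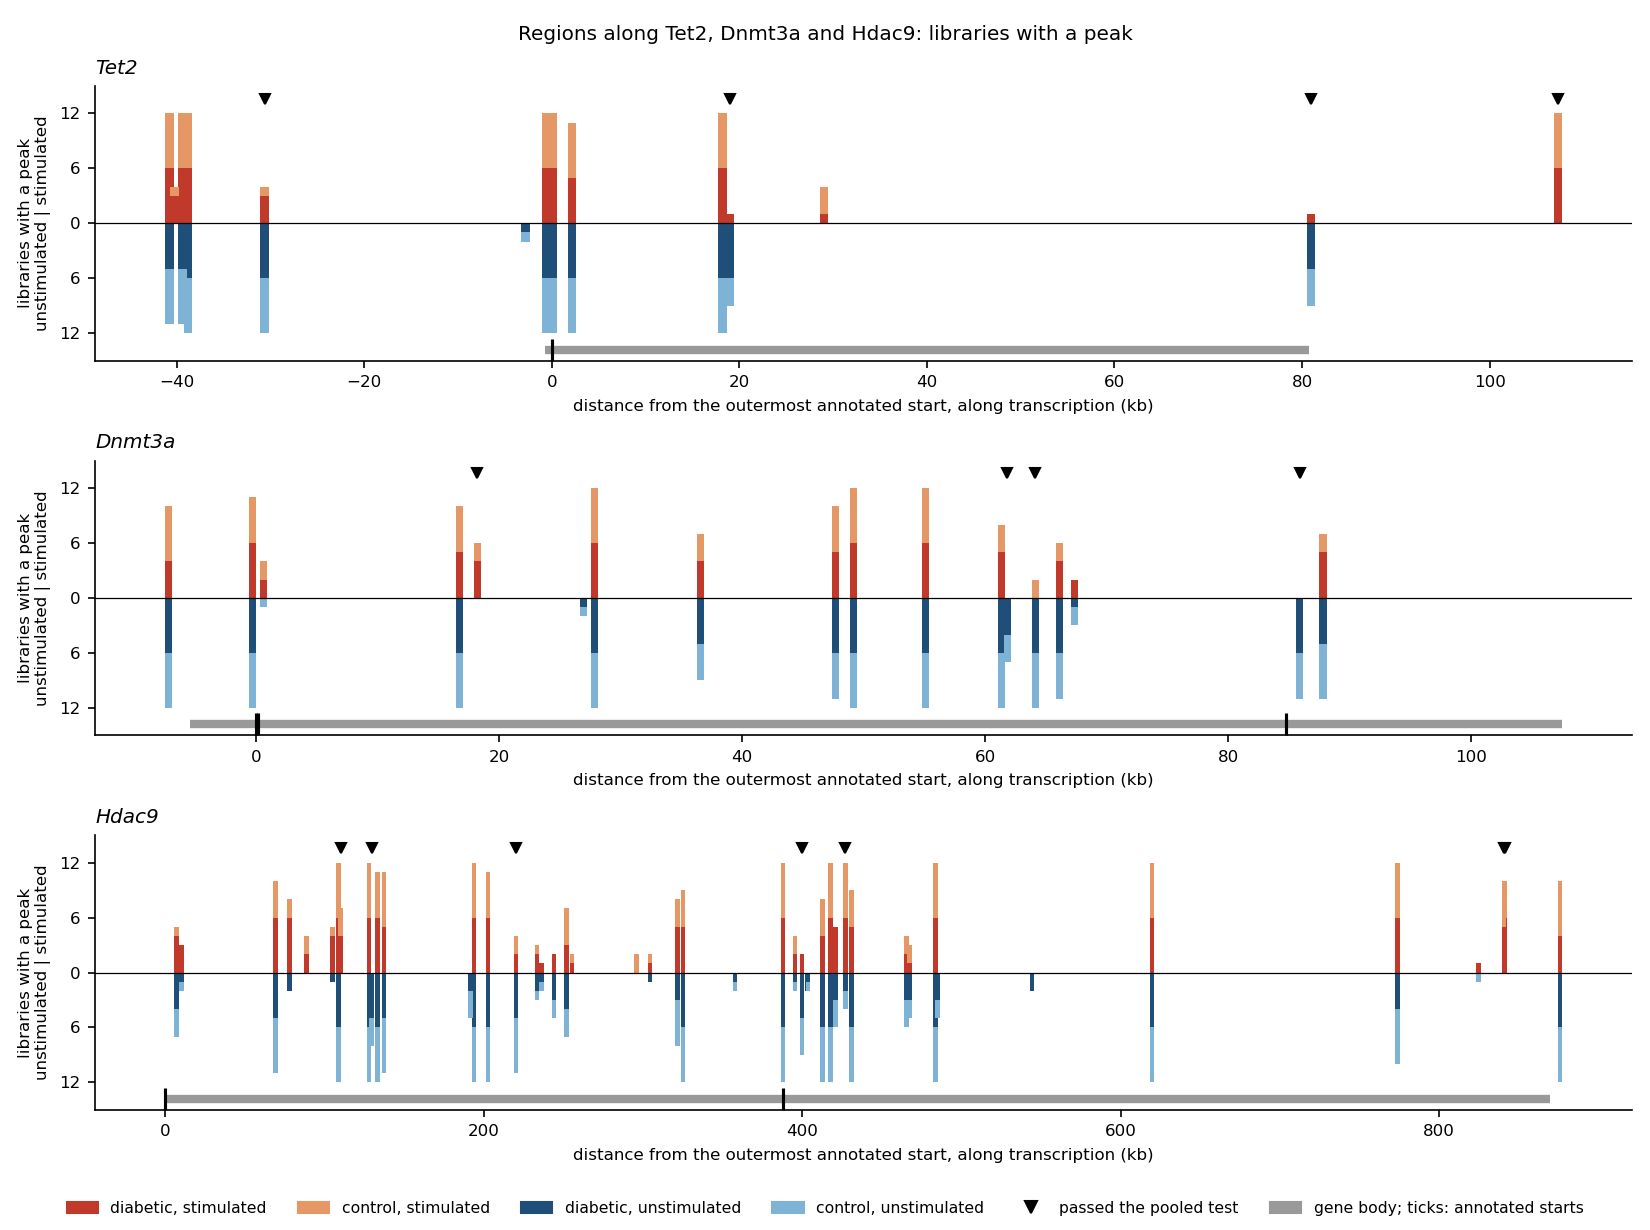
Libraries with a peak in each region along Tet2, Dnmt3a and Hdac9, stimulated upward and unstimulated downward (y axis, up to 12 libraries), by distance from the outermost annotated start in kb (x axis). Triangles mark regions that passed the pooled test (8 gained, 10 lost over the 10 genes), and neighbouring regions can share a mark.

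Hdac9 gained 4 regions and lost 3. The strongest gain lay near the far end of the gene, 453 kb after the inner start (chr12:34075497-34075983), in 6 diabetic and 4 control stimulated libraries and no unstimulated one (Fisher's exact test, adjusted p = 0.00128). Its neighbour (chr12:34076077-34076435) was found in 5 diabetic and 2 control stimulated libraries and no unstimulated one (adjusted p = 0.0235). Both gains thus lie in one short stretch. A region 39.0 kb after the inner start (chr12:34489713-34490241) was found in 6 diabetic and 6 control stimulated libraries, against 2 diabetic and 2 control unstimulated ones (adjusted p = 0.0101). Its folds ran from 4.26 over 6.87 to 10.6 in diabetic stimulated and from 4.42 over 6.06 to 8.13 in control stimulated libraries. The unstimulated peaks had folds from 3.63 to 4.11 in 2 diabetic and from 4.15 to 4.31 in 2 control libraries, near the lowest stimulated ones. The remaining gain (chr12:34806736-34807057) was found in 4 diabetic and 3 control stimulated libraries and no unstimulated one (adjusted p = 0.0235).

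Of the lost Hdac9 regions, chr12:34787430-34787681 was found in no stimulated library, against 5 diabetic and 3 control unstimulated ones (adjusted p = 0.0101, Fisher's exact test). The region chr12:34696656-34697129 was found in 2 diabetic and 2 control stimulated libraries, against 5 diabetic and 6 control unstimulated ones (adjusted p = 0.0437). The region chr12:34516834-34517378 was found in 2 diabetic and 0 control stimulated libraries, against 5 diabetic and 4 control unstimulated ones (adjusted p = 0.0489). Leaving out any 1 of 14 of the 24 libraries ended the last call, with an adjusted p of at most 0.0522, and regions built from summit chains of 150 bp gave 0.106. With lists of equal length it did not pass, nor did the gains at 34076077 and 34806736. Gains and losses lay close together, the gain at 34806736 being 110.2 kb and the loss at 34787430 129.5 kb from the outer start. A region found everywhere 109 kb from the outer start (chr12:34808201-34808605) had a higher rank in diabetic stimulated than in diabetic unstimulated libraries, with mean percentiles of 69.7 ± 21.4 and 35.2 ± 20.5, SD and n = 6 (score difference 1.03, SE 0.29, adjusted p = 0.0208, limma). In control macrophages the percentiles were 75.7 ± 12.1 after stimulation and 50.8 ± 20.2 before it (SD, n = 6 each), and that difference did not pass the test; the difference between the phenotypes did not pass either. The diabetic call ended without diabetic stimulated replicate 1 (adjusted p = 0.0602) or 4 (0.0510) or diabetic unstimulated replicate 6 (0.0661), and under an adjusted exact permutation test (p = 0.136).

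Single regions were called in Kmt2a, Kdm5b and Kdm6b, which add or remove histone methylation. Kmt2a, which writes lysine 4 methylation at promoters, gained a region 12.4 kb inside the gene (chr9:44868704-44869040), found in 3 diabetic and 4 control stimulated libraries and in no unstimulated library (adjusted p = 0.0235, Fisher's exact test). Kdm5b gained a region 447 bp after its start (chr1:134560378-134560887), found in 4 diabetic and 3 control stimulated libraries and in no unstimulated one (adjusted p = 0.0235). The folds there were low, from 3.64 to 4.03 in the diabetic and from 4.43 to 6.41 in the control libraries. With lists of equal length the Kmt2a gain did not pass (adjusted p = 0.0938, Fisher's exact test). The Kdm5b gain, then a difference of 3 libraries, was found in too few libraries to be tested. Kdm6b lost a region in its body (chr11:69408526-69408981), found in 3 diabetic and 3 control stimulated libraries, against 6 diabetic and 6 control unstimulated ones (adjusted p = 0.0489). Leaving out any 1 of 15 of the 24 libraries ended that call, with an adjusted p of at most 0.0522, and regions built from summit chains of 150 bp gave 0.0540. The folds ran from 3.04 to 4.23 in the diabetic and from 3.56 to 4.35 in the control stimulated libraries, below all unstimulated values, which ran from 4.58 to 5.85 in diabetic and from 4.84 to 6.92 in control macrophages.

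**Figure D5:**
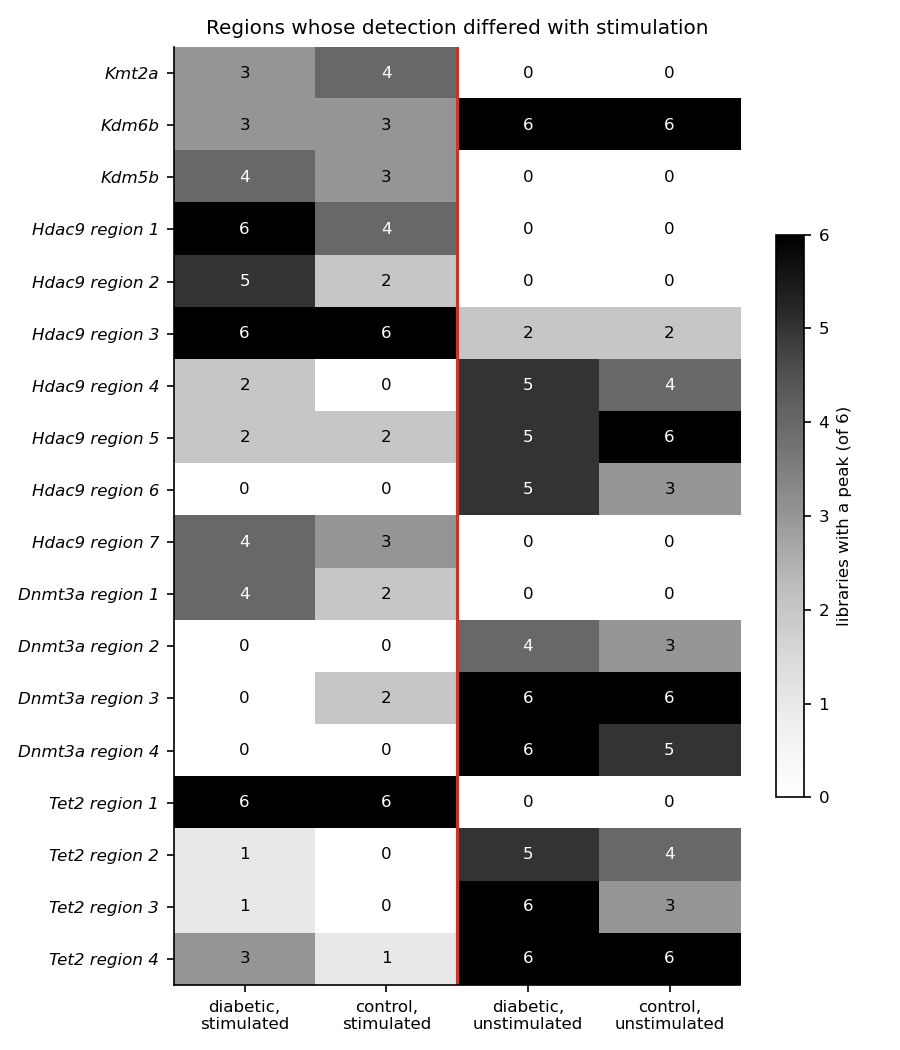
Number of libraries with a peak, of 6 per group (columns), for the 18 regions (rows, by gene and then by position) whose detection differed with stimulation at an adjusted p under 0.05. The Tet2 region found in all 12 stimulated libraries and in no unstimulated one shows the widest contrast.

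In the fold ranks, 3 of 21 regions passed in diabetic macrophages (background 10.3%) and 4 of 21 in control macrophages (background 19.7%). The Tet2 and Dnmt3a regions above passed in both. In control macrophages the Kdm6b region near a gene end fell by 1.18 (SE 0.26, adjusted p = 0.0021, limma), and in diabetic macrophages its difference was -0.33 (adjusted p = 0.479). Hdac3 is the catalytic subunit of the NCoR and SMRT co-repressor complexes, and the region at its gene end (chr18:37954600-37955313) rose by 0.69 in rank score (SE 0.22, adjusted p = 0.0272, limma) in control macrophages, and its difference in diabetic macrophages was 0.37 (adjusted p = 0.317). Its call ended without control stimulated replicate 3 (adjusted p = 0.0604), 4 (0.0531) or 5 (0.0506), or without control unstimulated replicate 2 (0.0793). The median fold there was 8.85 in diabetic stimulated, 8.52 in control stimulated, 9.07 in diabetic unstimulated and 8.70 in control unstimulated libraries. These medians lie close together, and ranks are relative to the other regions of a library.

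For the number of peaks per gene with stimulation, no member passed in diabetic macrophages (background 0%) or in control macrophages (background 19.7%; 2412 of 2869 called genes had more peaks per 1000). At an unadjusted p under 0.05, Setd7 and Kmt2a had more peaks per 1000 in diabetic stimulated libraries, 2 of 10 genes against 14.8% of all genes. Setd7 had 0.180 ± 0.0103 peaks per 1000 in diabetic stimulated and 0.128 ± 0.0162 in diabetic unstimulated libraries (exact permutation p = 0.00216, the smallest possible, adjusted p = 0.094). Its counts ran from 8 to 10 after stimulation and from 5 to 9 before it. Kmt2a had 0.0436 ± 0.00926 peaks per 1000 in diabetic stimulated and 0.0210 ± 0.00688 in diabetic unstimulated libraries (exact permutation p = 0.00433, adjusted p = 0.122), which is 2 or 3 peaks against 1 or 2.

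The difference between the phenotypes in their response to stimulation was tested as well. No region of these genes passed Zelen's exact test (0 of 9 testable regions, background 0%). At an unadjusted p under 0.05 that test also gave 0, against 2.45% of all 9353 testable regions. None of 21 passed the interaction in the fold ranks (background 0%). At an unadjusted p under 0.05 there were 3 of 21, each with a higher stimulated minus unstimulated score in diabetic than in control macrophages. They were the Kdm6b region near a gene end (0.85, adjusted p from limma 0.734), which changed by -0.33 in diabetic and -1.18 in control macrophages, a Hdac9 region 232 kb after the inner start (chr12:34296986-34297567, 0.996, adjusted p 0.741), which changed by 0.31 in diabetic and -0.69 in control macrophages and was named after its values were seen, and the Hdac9 region 128 kb from the outer start (1.02, adjusted p 0.745), which changed by 0.55 in diabetic and -0.47 in control macrophages. Over all regions 6.69% had such a p, and no adjusted p passed.

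A list of 78 further chromatin modifiers, including other methyltransferases, demethylases, acetyltransferases and deacetylases, was treated in the same way. In its regions 0 of 32 testable ones passed between diabetic and control unstimulated libraries and 0 of 45 between the stimulated ones. With stimulation over both phenotypes 12 of 125 regions were gained and 20 lost (25.6%, against 39.1% of the regions of the 10 genes and 28.1% of all regions). The lowest p-values belonged to a lost region of Dot1l, the lysine 79 methyltransferase of histone H3, found in 1 stimulated and 12 unstimulated libraries. Gains of equal size lay at Kat6a, an acetyltransferase, and Mbd2, a reader of methylated CpG, each found in 11 stimulated libraries and no unstimulated one (adjusted p = 0.000303 for all 3, Fisher's exact test).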

How the data were processed

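ATAC-seq peak lists in narrowPeak format, 1 per library, were analysed for 24 libraries in 4 groups of 6. Libraries were made from 50000 cells, with fragments above 1200 bp removed and single reads of 50 bp, per the labels. Per the submitters' processing notes, reads were handled on build mm10 with MACS2 2.1.1, Bowtie2 2.2.6, Trim Galore (given as 1.8), DiffBind 2.4.8, edgeR and FastQC 0.11.3, whose settings the sources used here do not give. The deposited lists hold a score per peak, which equals 10 times the −log10 q rounded down in 99.99% of peaks, the summit fold (a ratio of signal over the caller's background), the −log10 p, the −log10 q, and the summit's offset from the peak start in bp. The smallest deposited −log10 q was 1.30. These are the authors' values; no read counts were used, and depth is unknown except through list length.

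A summit was given to the nearest protein-coding body of the RefSeq table within 50 kb. Peaks were merged across libraries at 1 bp of overlap, and 80598 of 102580 regions occurred in at least 2 libraries. Detection was compared by two-sided Fisher's exact tests (Zelen's exact test for the interaction), adjusted by Benjamini-Hochberg over all regions whose detection number could reach p = 0.05. For 22770 regions found in all 24 libraries, the highest fold of any peak in the region was ranked within each library. Ranks were turned into normal scores and fitted with limma 3.58.1 (R 4.3.3) over the 4 groups, with Benjamini-Hochberg adjustment. Assigned peaks per 1000 were compared by exact permutation of 924 label orders (smallest p 0.00216), adjusted over all genes with peaks in at least 6 libraries. Python 3.11.15, numpy 2.4.6, pandas 2.3.3 and scipy 1.17.1 were used, and the tests were tried on simulated data. No 2 libraries were identical.

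Named regions were those called in any comparison, those with an unadjusted p under 0.05 between diabetic and control, and the region found everywhere nearest each start; others are marked where named. The members and lists were chosen with earlier results of these data known. Alternatives were lists of equal length, a −log10 q of at least 5, summit chains of 150 bp, assignment within 10 kb or to any gene type, adjustment over all regions, ranks of −log10 q, permutation in place of limma, plain peak numbers, a replicate block and leaving out each library.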

Additional observations from a re-analysis of the deposited data

Results flagged for a closer look

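Each group of 6 libraries was screened for a single value far from the rest, by its gap to the nearest value relative to the range of the group. Chance gives about 1 in 20 for continuous values, whereas a set of few whole peaks can be flagged through 1 peak in 1 library. Such sets were those of Hdac3 and Kmt2a below. Of 44 sets screened, 6 had a value far from the rest. In 4 of them the value was Hdac3 at 0 peaks per 1000, in diabetic stimulated replicate 2, control stimulated replicate 2, diabetic unstimulated replicate 1 and control unstimulated replicate 4. In these 4 libraries the peak at the Hdac3 gene end had its summit nearest Rell2, so the region itself was found in all 24. Kmt2a had 0.03469 peaks per 1000 in diabetic unstimulated replicate 1, above a group median of 0.0192. The 10 genes together had 1.138 peaks per 1000 in control unstimulated replicate 4, below a group median of 1.29.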

How the results depend on the processing

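No single named result changed direction. Counts of called regions and genes were not checked for direction. Over the alternatives and left-out libraries, 257 such counts stayed equal or close and 42 moved. Adjustment over all regions left 0 stimulation calls in diabetic, 0 in control and 9 over both phenotypes, against 4, 3 and 18. Lists of equal length (41385 peaks) gave 7, 6 and 11, with 10 of the 18 kept; a −log10 q of at least 5 gave 6 in control macrophages, and assignment within 10 kb gave 1. Summit chains gave 15 calls over both phenotypes, ending 3 of the 18. The 1 unadjusted diabetic against control region and the 1 such gene in the stimulated state both became 0 with lists of equal length, and the region also with a −log10 q of at least 5. Equal lengths left 1 gene at an unadjusted p under 0.05 with stimulation in diabetic and gave 1 in control macrophages, where plain peak numbers gave 2. Ranks of −log10 q gave 5 called regions in diabetic and 8 in control macrophages, against 3 and 4. Exact permutation gave 1 unadjusted region between diabetic and control stimulated libraries and 1 call with stimulation in diabetic macrophages.

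Leaving out 1 library gave 1 to 2 unadjusted regions between diabetic and control stimulated libraries. With stimulation it gave 4 to 6 called regions in diabetic, 1 to 8 in control (8 without control stimulated replicate 6) and 15 to 18 over both phenotypes. In the fold ranks it gave 1 to 4 unadjusted regions between the stimulated groups, 0 to 2 between the unstimulated ones, 2 to 3 calls in diabetic and 3 to 5 in control macrophages. Of single named results, 115 settings ended a call and 730 did not. The 730 include assignment within 10 kb or to any gene type, which left the tests of regions unchanged. Those settings could not end a named detection call.

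Same-numbered libraries did not deviate together in the fold ranks, which cannot show whether the numbers mark the parts of a sample. Deviations of same-numbered libraries correlated at −0.174 to 0.0605, with 0 of 6 pairs over 0.1 in every comparison, and at most 1 library correlated best with its own number. With a replicate block, no region or gene kept an unadjusted p under 0.05 between the stimulated groups (Hdac9 region p = 0.0625, exact McNemar test). With 5 diabetic libraries against 0 control ones, that test gives this value however the libraries are paired, so it cannot decide. The labels pair no diabetic library with a control one. With the block, 1 stimulation call remained in control macrophages and 16 over both phenotypes. The control calls that ended were Dnmt3a at 3892638 and Tet2 at 133574726. Each differed by 5 libraries, too few for the exact McNemar test to call, so the block could not decide them. Over both phenotypes, the calls ended were Kdm6b at 69408526 and Dnmt3a at 3824957 (adjusted p = 0.0653 each, exact McNemar test).

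Only the length of the lists stands in for depth, and peaks with folds near 4 lie close to the caller's threshold. With 6 libraries a group, the detection test cannot call a lone region between diabetic and control. Nearest-gene assignment does not show which gene a region acts on.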
